A study of Mus musculus with 5 samples.

Results

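NRF2, encoded by Nfe2l2, and 9 of its antioxidant and detoxification target genes were followed in mouse liver under diet-induced and genetic obesity, with and without nordihydroguaiaretic acid (NDGA). The 10 genes were Nfe2l2, Srxn1, Nqo1, Hmox1, Gclc, Gclm, Txnrd1, Osgin1, Cbr3 and Ugdh. They were found by their symbol in the platform's probe table, which named 12 probes for them among 29922 on the array, or 10 genes of 16637. Srxn1 had 3 probes and the other 9 genes had 1 each.

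Liver RNA was labelled with Cy5 and hybridised in 1 colour to Phalanx Mouse OneArray slides, 1 array for each of 5 groups. All mice had the C57BL/6 background and stayed on their diet for 16 weeks. Wild-type (WT) mice made up 3 of the groups: chow, high-fat diet, and high-fat food containing NDGA at 2.5 g per kg. The ob/ob mice, which lack functional leptin and become obese on chow, ate either plain chow or chow containing NDGA at that dose. The series' design text states that RNA of 3 animals was used per group but not whether it was pooled, and the labels name neither age nor sex. With 1 array per group there is no spread between animals, so no test or p-value was possible, and every difference below is between 2 arrays.

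NRF2 is a transcription factor that is normally bound by KEAP1, handed to the CUL3 ubiquitin ligase and degraded. Oxidants and electrophiles modify KEAP1, NRF2 accumulates, pairs with a small MAF protein and binds antioxidant response elements in its target genes. These targets make and recycle glutathione and thioredoxin, reduce quinones and carbonyls, break down heme and supply conjugation reactions, and many of them are active in hepatocytes. NDGA is a plant lignan with 2 catechol rings that inhibits lipoxygenases and scavenges radicals. Because NRF2 is controlled mainly at the level of the protein, the message of Nfe2l2 does not measure its activity.

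Promoter sequence is shown for Srxn1 and Gclm, which shared the direction of all 4 differences below, and for Osgin1, which read lowest on both NDGA arrays. Each of these 3 windows holds a match to an NRF2-type element. The sequences are RefSeq's, assembly GRCm38.p6, read 5′ to 3′ on the gene's strand, and end just before the annotated start, or for Gclm before the first annotated start of the gene. Capitals mark a match to TGACNNNGC, the core of the antioxidant response element, or to TGANTCAGC, the form bound by NRF2 with a small MAF protein; either orientation was accepted. TGANTCAGC contains TGANTCA, which the AP-1 factors also bind.
Srxn1, chr2:152105274-152105523, plus strand: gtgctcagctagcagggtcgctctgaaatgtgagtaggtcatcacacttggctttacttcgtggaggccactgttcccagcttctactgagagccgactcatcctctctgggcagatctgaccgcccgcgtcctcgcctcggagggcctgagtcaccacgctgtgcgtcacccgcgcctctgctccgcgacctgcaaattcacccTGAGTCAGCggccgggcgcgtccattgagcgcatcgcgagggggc
Osgin1, chr8:119436897-119437146, plus strand: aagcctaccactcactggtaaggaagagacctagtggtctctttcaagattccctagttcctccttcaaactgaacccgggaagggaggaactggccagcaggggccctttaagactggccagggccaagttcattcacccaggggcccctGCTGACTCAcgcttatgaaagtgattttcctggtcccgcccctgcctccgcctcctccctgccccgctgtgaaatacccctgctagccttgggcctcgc
Gclm, chr3:122245307-122245486, plus strand: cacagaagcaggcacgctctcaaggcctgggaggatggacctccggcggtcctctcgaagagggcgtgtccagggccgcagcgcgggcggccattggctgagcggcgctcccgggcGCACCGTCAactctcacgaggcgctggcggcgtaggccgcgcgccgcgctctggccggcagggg

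In Srxn1 the match TGAGTCAGC starts 45 bases before the annotated start. In Osgin1 the same 9 bases lie on the opposite strand, with the first base 99 bases before the start. Gclm carries TGACGGTGC on the opposite strand, 134 bases before the start used in the table. Over all 32851 windows of 300 bases (250 before and 50 after a start), 1.19% held TGANTCAGC and 12.4% held TGACNNNGC. Of the members, 8 had a window in the table, and Hmox1 and Gclc had none. Srxn1 and Osgin1 were the members with TGANTCAGC, a form added after the promoters were seen, so the shares are no test of it. TGACNNNGC was found in 5 members, which besides Gclm were Nfe2l2, Srxn1 (29 bases after its start), Txnrd1 (in 1 of its 3 windows) and Ugdh. Neither form was found in the windows of Nqo1 and Cbr3. A match is a description of the letters and was not tested for binding.

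Intensities below are quantile normalized between the 5 arrays, and log2 differences are on the scale log2(intensity + 50), which understates the difference of dim probes. A gene was called expressed when its mean over the 5 arrays reached the median of all genes, an intensity of about 91.8. Of the 10 members, 6 were expressed (Srxn1, Hmox1, Gclm, Txnrd1, Osgin1 and Cbr3). The other 4, Nfe2l2, Nqo1, Gclc and Ugdh, lay below that level. As the one internal measure of error, 835 genes with 2 bright probes gave an SD per probe of 0.35 with high-fat diet, 0.33 with NDGA on that diet, 0.28 in ob/ob relative to WT and 0.46 with NDGA in ob/ob, which covers the probe but not the animal. Of 9 named hepatocyte markers, 7 were expressed, and the probes of Tat and Tdo2 were dim. Alb was saturated on 4 of the 5 arrays, and Apoa1 and Asgr1 on 1 each, so their sum cannot show a change. Among those never saturated, Ttr, the transport protein transthyretin, ran from 5308 to 10828, and Cps1, of the urea cycle, from 1858 to 6215. With NDGA in ob/ob Cps1 differed by 1.71, Ttr by 0.72 and Hnf4a by 0.28. Apob went the other way there, from 53776 to 34419 (-0.64).

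Srxn1 encodes sulfiredoxin, which restores peroxiredoxins that have been over-oxidised by peroxide. Its brightest probe read 297 on WT chow, 1022 on WT high-fat diet, 445 on WT high-fat diet with NDGA, 684 on ob/ob chow and 1927 in ob/ob with NDGA. Both obese groups without NDGA thus read above lean chow, the NDGA array was lower than its control in WT and higher than its control in ob/ob. The log2 difference was 1.63 with high-fat diet, -1.12 with NDGA on that diet, 1.08 in ob/ob relative to WT and 1.43 with NDGA in ob/ob. The other probes of Srxn1 gave the same 4 directions, at 1.21, -0.77, 0.98 and 1.54 for the second and 0.95, -0.84, 0.61 and 1.17 for the dimmest. Srxn1, the only member with more than 1 probe, had the same order of arrays in its 3 probes. On the array of ob/ob chow with NDGA it stood 2.51 above WT chow, a difference exceeded by 15 of the 8319 expressed genes.

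**Figure D1:**
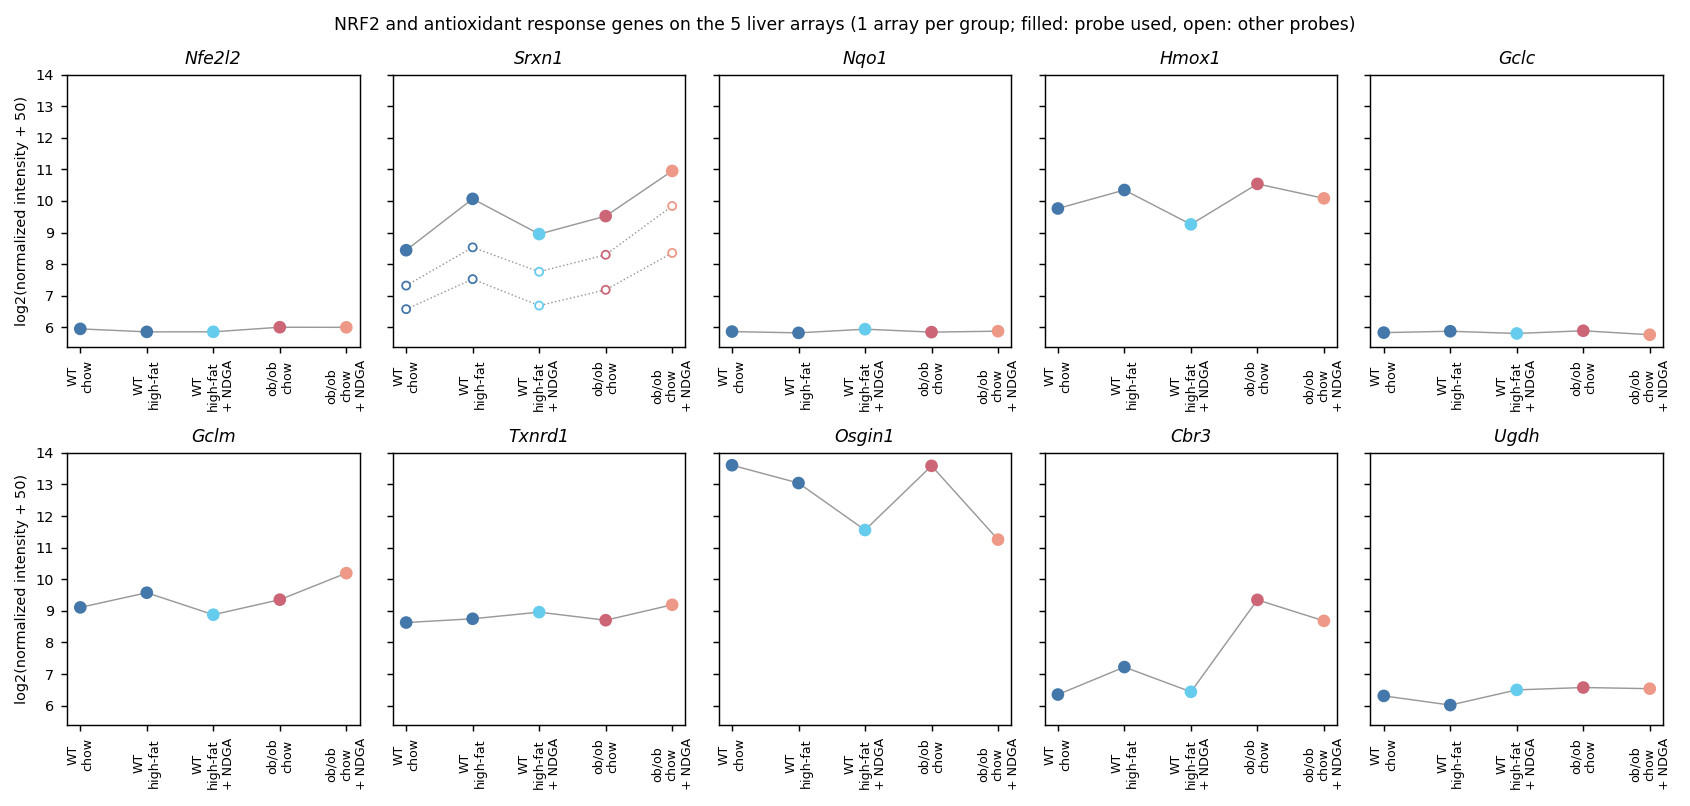
Values of the 10 genes on the 5 arrays as log2 of the normalized intensity plus 50, with 1 array per group; filled points are the probe used and open points are the other probes of Srxn1. Srxn1 and Cbr3 span 2.51 and 3.00 log2 units and Osgin1 2.35, whereas Nfe2l2, Nqo1 and Gclc stay within 0.15.

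Osgin1, oxidative stress induced growth inhibitor 1, followed the opposite course with NDGA in ob/ob. It read 12437 on WT chow, 8397 on WT high-fat diet and 2961 on the high-fat diet with NDGA. In ob/ob it read 12271 on chow and 2391 with NDGA. Both NDGA arrays were thus the lowest of the 5, and the lean and ob/ob chow arrays were nearly equal. The log2 difference with NDGA was -1.49 on the high-fat diet and -2.34 in ob/ob, against -0.56 for high-fat diet and -0.02 for ob/ob against WT. Only 23 of the 8319 expressed genes had a lower value than Osgin1 with NDGA on the high-fat diet, and 3 had a lower one with NDGA in ob/ob. Osgin1, Id3 and Sdr9c7 were the 3 expressed genes at least 2-fold lower in both NDGA comparisons (Id3, which encodes an inhibitor of DNA binding, and Sdr9c7, a short-chain dehydrogenase, were named after their values were seen). Without normalization Osgin1 was still at -1.52 and -1.35. It was also at -2.05 between the high-fat array with NDGA and WT chow, so its level with NDGA lay below lean chow as well.

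The glutathione genes are the catalytic and modifier subunits of glutamate-cysteine ligase, the first and rate-limiting enzyme of glutathione synthesis. Gclm, the modifier subunit, read 502 on WT chow, 712 on high-fat diet, 420 on high-fat diet with NDGA, 604 on ob/ob chow and 1120 in ob/ob with NDGA. The highest value was again that of ob/ob with NDGA and the lowest that of WT with NDGA. The log2 differences were 0.46, -0.70, 0.24 and 0.84 in the order used for Srxn1, all under 2-fold as normalized here. The last passed 2-fold under other scalings, at 1.06 with loess, 1.26 with each array centred on its median and 1.71 without normalization, where the median expressed gene stood at 0.08, 0.21 and 0.67. The value for ob/ob against WT was 0.04 without normalization. Gclc, the catalytic subunit, read between 4.39 and 9.37 on all arrays, far under the median probe at 46.9, so its probe gave no usable difference.

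Txnrd1 encodes the cytosolic thioredoxin reductase, a selenoprotein that keeps thioredoxin reduced with NADPH. It read 346, 380 and 447 on WT chow, high-fat diet and high-fat diet with NDGA, and 367 and 534 on ob/ob chow without and with NDGA. Its differences were small: 0.12 for high-fat diet, 0.21 for NDGA on it, 0.07 for ob/ob and 0.49 for NDGA in ob/ob. Txnrd1 was the expressed member that read higher with NDGA in both models, and both values are close to or under the SD between probes. Without normalization the ob/ob against WT value turned to -0.10.

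Hmox1 encodes the inducible heme oxygenase, which opens heme to biliverdin, carbon monoxide and iron, and is expressed by Kupffer cells as well as by stressed hepatocytes. It read 817 on WT chow, 1251 on high-fat diet, 562 on high-fat diet with NDGA, 1438 on ob/ob chow and 1034 in ob/ob with NDGA. The 2 obese groups without NDGA were highest and the high-fat array with NDGA was lowest, below lean chow by 0.50 (-0.50). It differed by 0.58 with high-fat diet, by -1.09 with NDGA on it, by 0.78 in ob/ob relative to WT and by -0.46 with NDGA in ob/ob. The last value depends on the scaling, since the deposited intensities were 1093 and 1517, which gives 0.46 without normalization, where the median expressed gene stood at 0.67.

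Macrophage and Kupffer cell markers varied between the same arrays as Hmox1. Their summed intensity over 14 named genes was 7734 on WT chow, 12143 on high-fat diet, 6457 on high-fat diet with NDGA, 15649 on ob/ob chow and 14159 in ob/ob with NDGA. As for Hmox1, the high-fat array with NDGA was lowest, lean chow next and ob/ob chow highest, while the other 2 arrays stood in the reverse order. Much of each sum was C1qb and Vsig4. On these arrays C1qb read 1650, 2934, 1298, 4201 and 3290, and Vsig4 read 2220, 2279, 1622, 4860 and 3054. Of the 12 expressed markers, 5 were at least 2-fold higher with high-fat diet and 0 lower, beside 2.13% of expressed genes higher. With NDGA on it 5 were at least 2-fold lower and 0 higher, beside 1.53% of expressed genes lower. In ob/ob against WT 3 were at least 2-fold higher, and with NDGA in ob/ob 2 were, with medians of 0.81 and 0.08. Of expressed genes 1.03% and 6.54% were higher in these comparisons. As the mean of their probes, 2 of the counted markers fell under 2-fold. Cd68 was at -0.48 and Csf1r at -0.55 with NDGA on the high-fat diet, and Csf1r was at 0.56 with high-fat diet. Without normalization the counts in the 4 comparisons were 5 higher, 3 lower, 2 higher and 5 higher, beside 2.08%, 1.06%, 0.565% and 31.5% of expressed genes. No marker of the list was at 0 on any array. In RNA of whole liver, more cells of a type and more RNA per cell cannot be told apart, and the part of macrophages in the Hmox1 values was not tested.

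Markers of other non-parenchymal cells also differed between the arrays. The 10 named stellate cell and fibroblast markers summed to 6746 on WT chow, 12909 on high-fat diet, 9009 on high-fat diet with NDGA, 11176 on ob/ob chow and 13289 in ob/ob with NDGA, which is the order of the arrays for Srxn1. Much of each sum was Dcn, which read 4069, 6435, 4370, 5501 and 7201 on these arrays. Their 7 expressed genes had medians of 1.04, -0.55, 1.11 and 0.39, the directions of Srxn1 and Gclm. Single markers did not all share them: 5 were below 0 and 2 above with NDGA on the high-fat diet, and 4 above and 3 below with NDGA in ob/ob. At least 2-fold apart were 4 higher with high-fat diet, 3 lower with NDGA on it, 4 higher in ob/ob and 0 with NDGA in ob/ob. Of expressed genes 2.13% were higher, 1.53% lower, 1.03% higher and 6.54% higher in these comparisons. Col3a1, a fibrillar collagen, was at 2.69, -2.03, 1.44 and 0.74 (1.39, -1.09, 0.76 and 0.34 as the mean of its probes). Vim, vimentin, was at 1.65, -1.52, 1.11 and 0.64. Acta2 and Des had the opposite signs in both NDGA comparisons. Acta2 was at 1.04, 0.89, 1.96 and -0.46 (0.23, 0.17, 0.44 and -0.16 as the mean of its probes), and Des at -0.23, 0.48, 0.07 and -0.51. On the mean of probes Acta2 was thus under 2-fold with high-fat diet and in ob/ob, and Col3a1 was under 2-fold in ob/ob. Of 6 expressed endothelial markers, 6 were below 0 with NDGA on the high-fat diet and 6 above 0 in ob/ob, with 1 of them, Lyve1, 2-fold apart (1.21 in ob/ob). Without normalization Stab1 and Clec4g were at -0.10 and -0.03 in ob/ob, and Lyve1 was at 0.99, under 2-fold. The median expressed gene stood at -0.15 there. Of all expressed genes, 46.7% and 55.4% were above 0 in these comparisons. No marker of these lists was at 0 on any array, and their part in the values of the members was not tested.

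**Figure D2:**
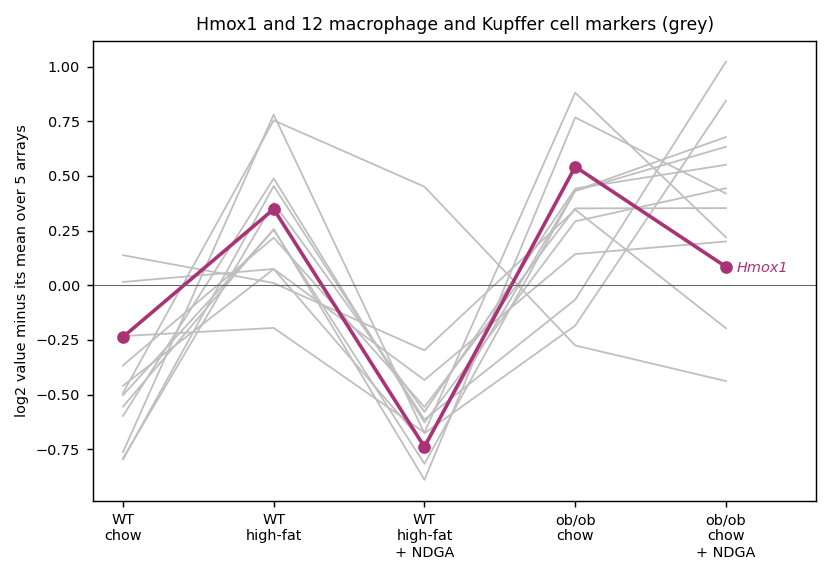
Hmox1 (coloured) and 12 expressed macrophage and Kupffer cell markers (grey lines) on the 5 arrays, each as its log2 value minus its own mean. Like Hmox1, 12 of 12 markers read lower with NDGA on the high-fat diet than without it and 12 of 12 read higher in ob/ob than in WT on chow; in ob/ob with NDGA the markers spread apart.

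Cbr3 encodes a carbonyl reductase that uses NADPH to reduce quinones and carbonyl compounds. It read 31.6 on WT chow, 99.1 on high-fat diet, 36.6 on high-fat diet with NDGA, 601 on ob/ob chow and 361 in ob/ob with NDGA. Both ob/ob arrays were far above all WT arrays, and within WT the high-fat array was highest. On WT chow the probe lay below the median probe and the filter, and Cbr3 was called expressed through the ob/ob arrays, so the size of its difference from lean chow is uncertain. The difference of ob/ob from WT on chow was 3.00, 3.70 with an offset of 16, and 2.20 with every dim reading raised to the level of the filter. Against the high-fat array, which read just above that level, ob/ob chow was higher by 2.13. High-fat diet gave 0.87 and NDGA on it -0.78. These became 1.27 and -1.13 with an offset of 16, and 0.07 and -0.07 with dim readings raised to the filter. For NDGA in ob/ob the difference was -0.66, or 0.15 from the deposited values without normalization, under the 0.67 of the median expressed gene there.

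The remaining members were dim. Nfe2l2 itself read between 7.94 and 14.1, and its log2 differences lay between -0.09 and 0.05. Nqo1, the quinone reductase most used as a marker of NRF2 activity, read between 6.69 and 11.4, with differences between -0.04 and 0.12. A probe at this level cannot tell a scarce transcript from one that the probe binds poorly, so nothing follows for either gene. Ugdh, which makes UDP-glucuronate for conjugation, read 29.3, 14.8 and 40.4 on the WT arrays and 45.2 and 42.8 on the ob/ob arrays, all below the filter. Of its 4 differences the one farthest from 0 was 0.48, for NDGA on the high-fat diet, or 0.87 with an offset of 16, from readings under the filter.

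Over the 10 members, 1 was at least 2-fold higher with high-fat diet and 0 lower, beside 1.15% of all 16637 genes higher and 0.685% lower. The median of the members was 0.08, beside -0.0031 for all genes, and 5 of the 6 expressed members were above 0, beside 49.3% of expressed genes. With NDGA on the high-fat diet, 3 were at least 2-fold lower (Srxn1, Hmox1 and Osgin1) and 0 higher, beside 0.829% of all genes lower and 0.487% higher, with a median of -0.38. As the mean of its probes Srxn1 was at -0.91, which leaves 2, and with an offset of 16 Cbr3 also passed, which gives 4. Txnrd1 was the 1 expressed member above 0, beside 46.7% of expressed genes. The high-fat array enters both of these comparisons, so a high value on it alone gives opposite signs in them. Set against lean chow instead, the high-fat array with NDGA stood at 0.51 for Srxn1, -0.23 for Gclm, 0.33 for Txnrd1 and 0.09 for Cbr3.

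In ob/ob against WT on chow, 2 members were at least 2-fold higher (Srxn1 and Cbr3) and 0 lower, beside 0.595% of all genes higher and 0.974% lower, with a median of 0.16. This comparison shares the lean chow array with that of the high-fat diet. Hmox1, at 0.78, was the next highest. Without normalization Srxn1 was at 0.87 here, which leaves Cbr3 alone beyond 2-fold.

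With NDGA in ob/ob, 1 member was at least 2-fold higher (Srxn1) and 1 lower (Osgin1), beside 3.75% of all genes higher and 0.289% lower, with a median of -0.02. Of the 6 expressed members, Srxn1, Gclm and Txnrd1 were above 0 and Hmox1, Osgin1 and Cbr3 below it. The array of ob/ob with NDGA was the brightest as deposited (median probe 71.0 against 38.1 to 47.0 on the other 4), and without normalization the median expressed gene differed by 0.67. On those unscaled values 31.5% of expressed genes were at least 2-fold higher, and Srxn1 was at 2.31, Gclm at 1.71 and Txnrd1 at 1.31, all above that median. Among all expressed genes, normalization also moved the split of 2-fold differences. Higher calls made up 93.0% of them in this comparison, 35.2% with NDGA on the high-fat diet (49.4% without normalization) and 37.1% in ob/ob against WT (19.2%).

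**Figure D3:**
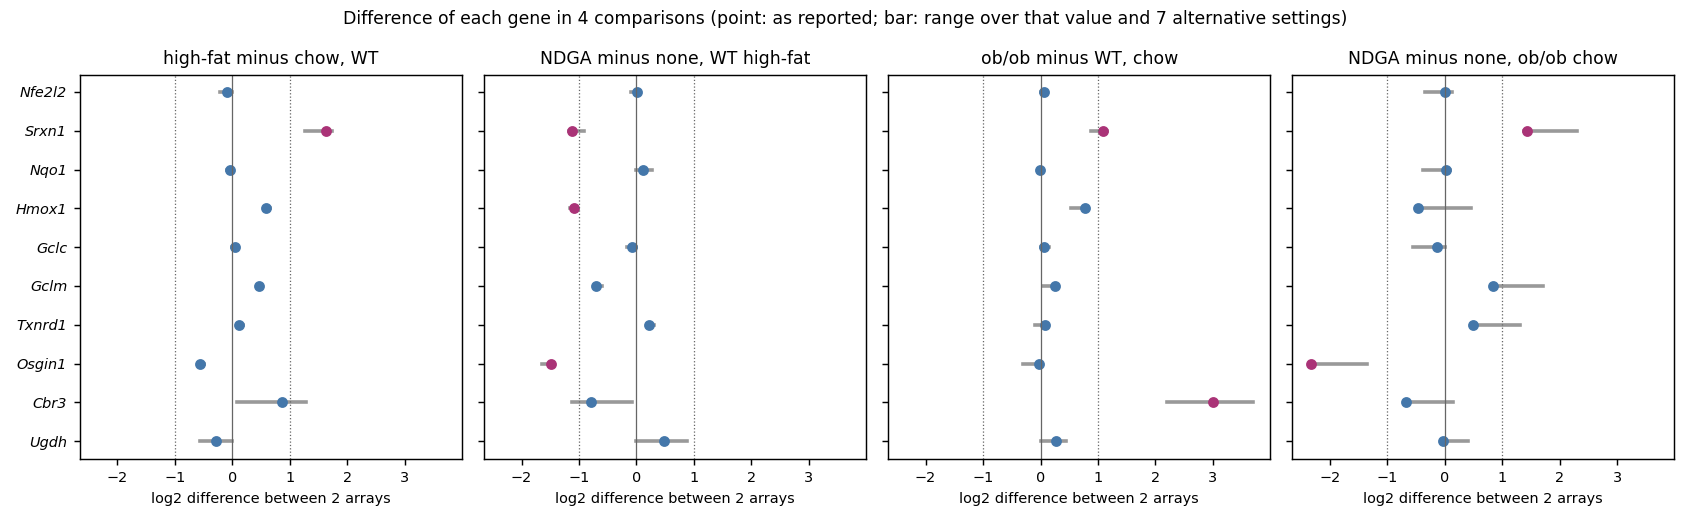
Log2 difference of each of the 10 genes in the 4 comparisons; points are the reported values, coloured differently where at least 2-fold, and bars run over the reported value and 7 alternative settings. The bars of Hmox1 and Cbr3 cross 0 for NDGA in ob/ob, whereas those of Srxn1 and Osgin1 stay beyond 1 or -1 there.

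The 2 NDGA comparisons use no common array, so the members can be set side by side in them, although all arrays were normalized together. Srxn1 was at -1.12 in WT on the high-fat diet and 1.43 in ob/ob, and Gclm at -0.70 and 0.84. Such opposite signs were frequent over the array, at 74.1% of the 8319 expressed genes, and 35.2% were lower in WT and higher in ob/ob. There were 40 genes at least 2-fold lower in WT and at least 2-fold higher in ob/ob, Srxn1 among them. Hmox1, Cbr3 and Osgin1 were lower in both, as were 18.0% of the expressed genes. Of these 3 members, Osgin1 kept that sign in ob/ob without normalization. Most skeletal muscle markers were also higher on both NDGA arrays. Their summed intensity over 10 named markers was 606 against 5987 in WT and 1232 against 2367 in ob/ob. Tnnt3, at -0.76 and 0.27 with NDGA, made up 409 of the 606 and 1023 of the 1232. Of 6 expressed muscle markers, the other 5 were at least 2-fold higher in each comparison, beside 0.829% and 6.54% of expressed genes. On the arrays without NDGA these 5 read below the filter, and they were called expressed through the NDGA arrays. Their count among expressed markers was therefore partly set by the values compared, and the sizes of these differences are uncertain. No muscle marker was at 0, and their part in the values of the members was not tested.

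**Figure D4:**
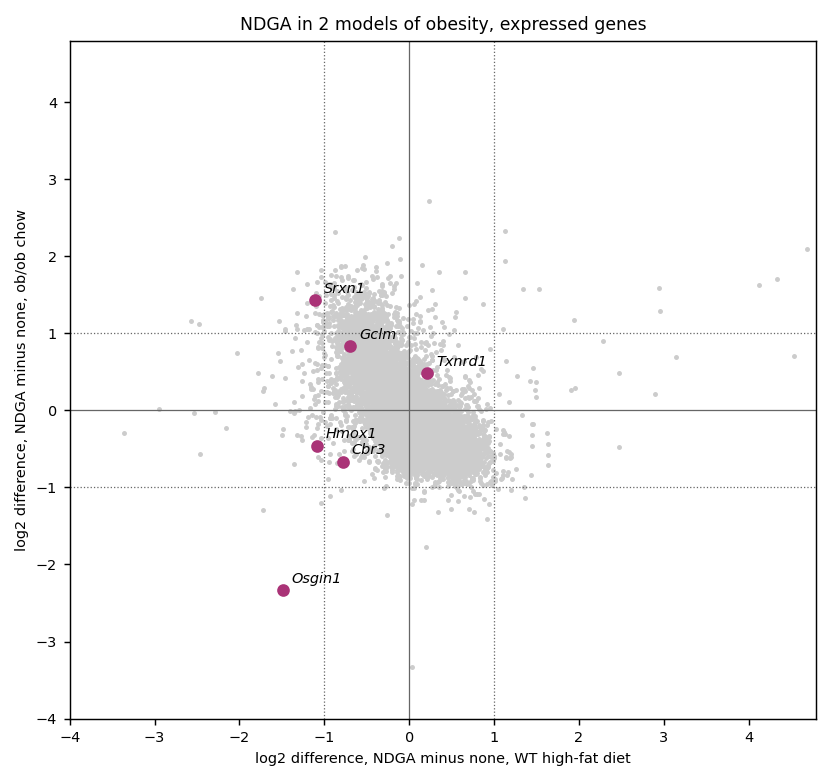
Log2 difference with NDGA in WT on the high-fat diet (horizontal) against that in ob/ob on chow (vertical) for 8315 of the 8319 expressed genes (grey; the other 4 lie outside the axes), with the 6 expressed members named. Most genes run from the upper left to the lower right, where Srxn1 and Gclm also lie; Osgin1 sits far to the lower left, at -1.49 and -2.34.

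The 3 genes with the most similar course over the 5 arrays were sought among all expressed genes for each member that spanned at least 1 log2 unit, by the root mean square distance between values centred on their own mean. With 5 arrays a small distance is easily reached, and the distances describe these arrays only. Gclm had 401 expressed genes within 0.2 of its course, the nearest being Ywhab, Cfdp1 and Asah1 (0.05 each). Hmox1 had 28, led by Sirpa (0.07), H2-Eb1 (0.12) and Lgmn (0.13). Srxn1 had 7, led by Spon2 (0.14), Anxa5 and Plekha1 (0.15 each). For Osgin1 and Cbr3 no gene lay within 0.2. The nearest to Osgin1 were Sdr9c7 (0.43), Sdf2l1 (0.56) and Ly6e (0.61), and the nearest to Cbr3 were Lgals3 (0.43), Tnnt3 (0.48) and Cd207 (0.56).

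Other genes of the pathway were taken from 10 lists of regulators, enzymes and transporters with 108 entries, of which 100 were named on the array and 82 expressed. With high-fat diet 3 of the 82 passed 2-fold upwards and 0 downwards (median 0.23), beside 2.13% of expressed genes higher and 1.29% lower. With NDGA on it 0 were higher and 1 lower (median -0.29), beside 0.829% and 1.53%. In ob/ob against WT 4 were higher and 1 lower (median 0.05), beside 1.03% and 1.76%, and with NDGA in ob/ob 10 were higher and 0 lower (median 0.34), beside 6.54% and 0.493%. Abcc4, among the 4 higher in ob/ob, passed the filter through the ob/ob arrays. The medians of all expressed genes in the 4 comparisons were -0.01, -0.04, 0.03 and -0.10. Without normalization 57 of the 82 were higher and 0 lower with NDGA in ob/ob (median 1.31), beside 31.5% and 0.0601% of expressed genes. In ob/ob against WT 3 were then higher and 2 lower (median -0.15), where the median expressed gene was also at -0.15. The list values below are normalized ones unless stated.

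Among the regulators of NRF2, none of 8 expressed genes was 2-fold apart in any comparison as normalized, whereas without normalization 1 was lower in ob/ob and 4 were higher with NDGA in ob/ob. Gsk3b, a kinase that marks NRF2 for degradation independently of KEAP1, was lower with high-fat diet (-0.89) and in ob/ob (-0.98, or -1.24 without normalization). Dpp3, which competes with NRF2 for KEAP1, was at 0.68, -0.63, -0.05 and 0.71 (1.64 without normalization). Trim21, a ubiquitin ligase, was at 0.63, -0.39, -0.16 and 0.95. It read below the filter on WT chow (67.2), high-fat diet with NDGA (88.5) and ob/ob chow (55.1). The sizes of its differences are therefore uncertain. Keap1, named for its role and outside the rule for naming genes, read 11.2 to 15.0 and was too dim to compare.

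The glutathione list had 9 expressed genes with few large differences. Gss, the second enzyme of glutathione synthesis, was higher in ob/ob by 1.12 and at -0.77 with NDGA there. Without normalization these were 0.84, under 2-fold, and 0.27. Slc3a2, the heavy chain of the cystine transporter, was lower in ob/ob at -1.30. Glrx, glutaredoxin, was at 0.86 with high-fat diet and 1.83 with NDGA in ob/ob.

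The list of thioredoxin, peroxiredoxin and sestrin genes had 13 expressed genes with medians of 0.21, -0.29, 0.07 and 0.34 in the 4 comparisons. It also holds Txnip, Msra and other thioredoxin reductases, so these are not the medians of substrates of Srxn1 or Txnrd1. Txnip, which binds and inhibits thioredoxin, was at 1.53 with NDGA in ob/ob and Prdx5 at 1.07 (0.92 as the mean of its probes). Prdx6 was at 0.89, -0.69, -0.03 and 0.98, with 0.29 and -0.33 for the first pair as the mean of its probes. Superoxide and peroxide removal rested on 3 genes, none 2-fold apart; Cat, catalase, was at -0.72 with high-fat diet and 0.40 with NDGA on it.

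Among the 82 genes, the one farthest from 0 with high-fat diet, with NDGA on it and in ob/ob was a glutathione S-transferase, Gstm3. It read 168 on WT chow, 634 on high-fat diet, 247 with NDGA on it, 1077 on ob/ob chow and 2919 with NDGA. Its order of arrays differs from that of Srxn1 only in that ob/ob chow lies above the high-fat array. The differences were 1.65, -1.20, 2.37 and 1.40, the last below those of Cbr4, Glrx, Txnip and Abcc3. Gstm2 was at 1.15 with high-fat diet (0.64 as the mean of its probes), Mgst3 at 1.43 in ob/ob (0.86), and Gstt1 and Gstz1 at 1.19 and 1.06 with NDGA in ob/ob. The other expressed transferases were under 2-fold in all 4 comparisons.

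Among quinone, carbonyl and epoxide enzymes, Cbr4, a mitochondrial carbonyl reductase, was at 0.94, -0.54, -0.08 and 1.89, and Aox1, aldehyde oxidase, at 0.77, -0.67, 0.17 and 1.32. Cbr1, the close relative of Cbr3, was at 0.86 in ob/ob against the 3.00 of Cbr3, on another probe. The heme and iron partners of Hmox1 were above 0 in 9 of 9 expressed genes with high-fat diet and in 9 of 9 with NDGA in ob/ob (medians 0.52 and 0.67), and below 0 in 8 of 9 with NDGA on the high-fat diet (median -0.44). Alas1, the first enzyme of heme synthesis, was the exception there (0.47) and stood at 1.27 with high-fat diet and 1.00 with NDGA in ob/ob. Of all expressed genes, 49.3% were above 0 with high-fat diet, 43.0% with NDGA in ob/ob and 46.7% with NDGA on the high-fat diet.

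Genes that supply NADPH had no member 2-fold apart. With NDGA in ob/ob 7 of 7 were above 0 (median 0.55), beside 43.0% of all expressed genes. Me1, malic enzyme, was at 0.79 and Pgd, of the pentose phosphate pathway, at 0.68. Of the UDP-glucuronate genes, Ugp2, which makes the substrate of Ugdh, was at 0.65, -0.80, 0.09 and 0.98, and Ugt2b34, a glucuronosyltransferase, at 1.23 with NDGA in ob/ob. Of 3 expressed efflux transporters, Abcc4 read 52.9 on WT chow and 212 on ob/ob chow (1.35), and Abcc3 was at 1.45 with NDGA in ob/ob. Abcc4 lay below the filter on every WT array and was called expressed through the ob/ob arrays, so the size of its difference is uncertain.

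**Figure D5:**
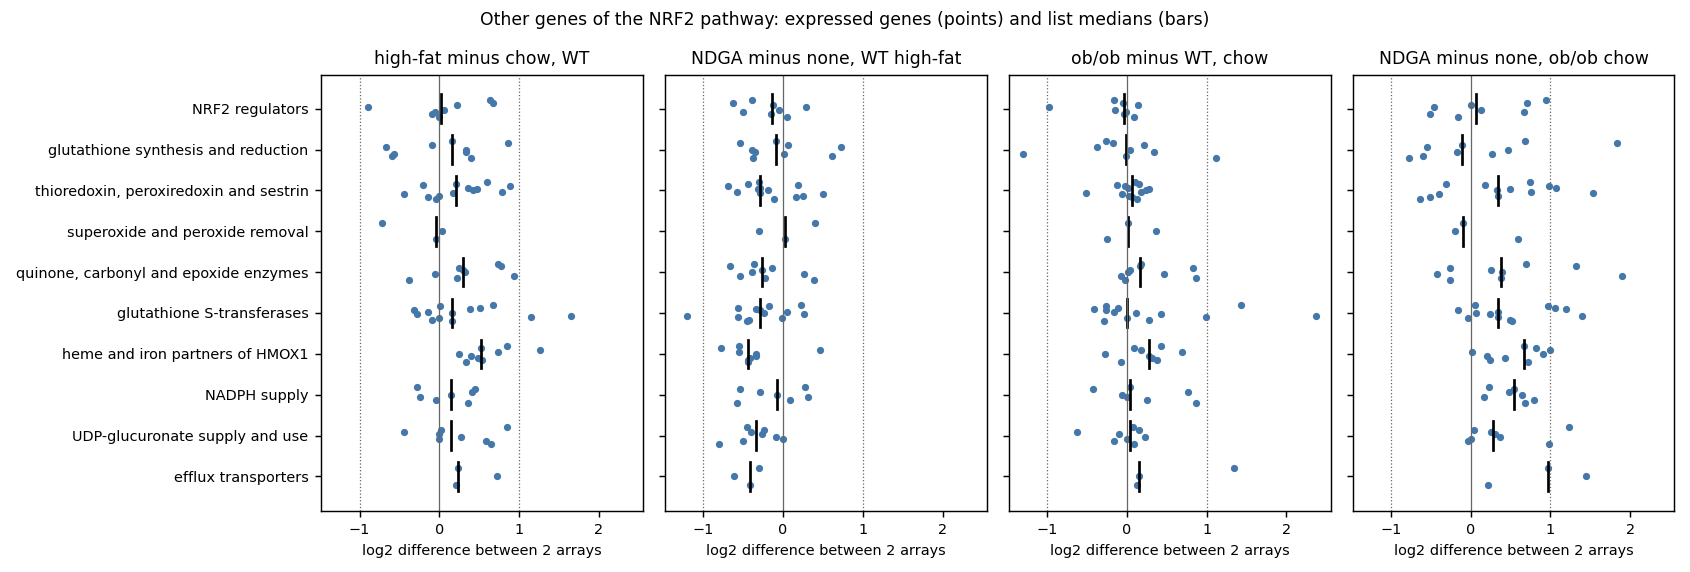
Log2 differences of 82 expressed genes of 10 pathway lists in the 4 comparisons; points are genes, black bars are list medians and dotted lines mark 2-fold. List medians lie mostly above 0 with high-fat diet and with NDGA in ob/ob and mostly below 0 with NDGA on the high-fat diet; the farthest point in ob/ob against WT is Gstm3 at 2.37.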

How the data were processed

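One table of 5 arrays was used. The values the authors deposited are taken as linear probe intensities with the background subtracted, judged from the values themselves, since no source used here names the scanner, the background correction or any scaling. They ran from below 0 to about 65000, and no probe of a member was saturated. Values were quantile normalized, 50 was added and log2 taken, so each fold is on that scale. Symbols were updated through RefSeq's gene table of GRCm38.p6, and among several probes of a gene the one with the highest mean of the 5 arrays was used. A log2 difference of at least 1 counted as 2-fold. The members and lists, and the offset, were chosen with earlier results of these data known, and TGANTCAGC was added as a motif after the promoters were seen. From each pathway list the rule named up to 3 expressed genes with the largest difference in any comparison and any at least 2-fold apart; not all are printed. No replicate exists, so no interval can be given. The steps were tested on simulated data. Python 3.11.15, numpy 2.4.6, pandas 2.3.3 and statsmodels 0.14.6 were used. Alternatives were no normalization, median centring, loess (span 0.3), an offset of 16, the mean of all probes, a floor at the 25th percentile, a floor at the level of the filter (added after the data were seen), and other filters for the background.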

Additional observations from a re-analysis of the deposited data

Results flagged for a closer look

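Srxn1 and Gclm were singled out because their difference with NDGA had opposite signs in the 2 models of obesity, each beyond the SD between probes. For Srxn1 the log2 difference in ob/ob minus that in WT on the high-fat diet was 2.54, from -1.12 and 1.43. For Gclm it was 1.54, from -0.70 and 0.84. With 1 array per group the difference between models was not tested, and 74.1% of expressed genes had opposite signs in these comparisons.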

How the results depend on the processing

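Over 7 alternatives, 280 values of single members were recomputed. Of these, 263 moved by less than the SD between probes and 17 by more. Many of the 263 could not move, so their number is no measure of stability. The mean of all probes repeats the value of the 9 members with 1 probe, and a floor leaves readings above it unchanged. None of the 8 values that were at least 2-fold apart changed sign. With an offset of 16 the count of members 2-fold apart for high-fat diet became 2. With NDGA on that diet it was 2 with the mean of all probes and 4 with an offset of 16, and the members' median was -0.036 with dim readings raised to the filter. In ob/ob against WT that count was 1 without normalization, with each array centred on its median, and with the mean of all probes, where Srxn1 was at 0.87, 0.88 and 0.89. With NDGA in ob/ob it was 4 without normalization and 3 with median centring and with loess, beside 31.5%, 14.6% and 10.6% of expressed genes higher under these settings, and the members' median was 0.28, -0.18 and 0.01. The cause was not tested. Without a filter on dim genes 1.84%, 1.32%, 1.57% and 4.04% of genes were 2-fold apart in the 4 comparisons, and above the 75th percentile 4.74%, 3.00%, 3.63% and 7.43%. No paired analysis was possible because each group has 1 array. Signal over background limits Nfe2l2, Nqo1, Gclc and Ugdh.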
